A study of Mus musculus with 16 samples.

Results

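The replication-dependent histone genes of the mouse were followed through poly(A)-selected RNA of myeloid sarcomas and leukaemic bone marrow. All genes whose symbol starts with Hist1h, Hist2h, Hist3h or Hist4h were taken, which gave 68 of the 23999 genes in the count table: 6 for the linker histone H1, 18 for H2A, 19 for H2B, 12 for H3 and 13 for H4. All 68 were matched by symbol in GENCODE M21 on GRCm38, with 54 on chromosome 13, 10 on chromosome 3, 3 on chromosome 11 and 1 on chromosome 6. The rule used their symbols and not their values, though earlier results of these data were known when it was set.

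Every mouse carried NPM1cA, a mutant form of the nucleolar chaperone NPM1 that is common in acute myeloid leukaemia. Myeloid sarcomas, solid tumours of leukaemia cells outside the marrow, came from 4 mice labelled NPM1cA/SMC3+/-, which are heterozygous for the cohesin subunit SMC3: 1267, 1268_1270, 948 and 2721, the last 2 with 2 tumours each. Whole bone marrow infiltrated with leukaemia came from 9 NPM1cA/SMC3+/- mice, of which 1267 and 2721 also gave sarcomas. A single sarcoma, from mouse 841, carried NPM1cA with wild type SMC3. The label 1268_1270 may name 1 mouse or a pool of 2 and was counted as 1. The sources used here do not give ages, sexes or the promoters behind the alleles. Tumours were dissected out and lysed directly, whereas marrow was crushed, filtered and freed of red cells first, so tissue and handling cannot be told apart.

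Replication-dependent histone genes supply the core histones that package newly made DNA, and the linker histone H1 that closes the nucleosome, during S phase. Their messages are the textbook exception to polyadenylation: the transcript is cut just after a short stem-loop that binds SLBP, with the help of the U7 snRNP, and normally carries no poly(A) tail. Some of these genes also have a poly(A) signal further downstream and can give tailed messages, which is a known feature of cells that have left the cycle. A library made from poly(A)-selected RNA therefore sees only the tailed part of histone message, together with whatever untailed message passes the selection, and the 2 cannot be told apart in these counts.

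The stem-loop is what separates the 2 kinds of 3′ end, so it is shown for the members on which the results turn. The 16-base histone 3′ stem-loop was found in a GENCODE M21 transcript of 44 of the 68 genes, against 9 of 58725 other protein-coding transcripts (0.0153%). It came in 7 versions, of which the commonest was present in 26 genes of the H1, H2A, H2B and H3 classes, and H4 genes had versions of their own. Capitals mark the stem-loop below, with up to 7 bases on either side, written 5′ to 3′ as DNA.

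Hist1h1c: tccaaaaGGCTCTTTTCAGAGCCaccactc
Hist1h2ac: acccaaaGGCTCTTTTCAGAGCCcccactt
Hist1h2bg: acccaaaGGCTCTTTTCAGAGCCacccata
Hist1h2be: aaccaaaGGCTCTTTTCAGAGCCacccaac
Hist3h2a: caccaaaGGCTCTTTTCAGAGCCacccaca
Hist1h3c: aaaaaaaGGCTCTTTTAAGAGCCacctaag
Hist1h4h: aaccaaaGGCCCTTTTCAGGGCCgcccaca
Hist1h4i: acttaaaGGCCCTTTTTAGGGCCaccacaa

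The annotated transcript of 22 genes ran more than 100 nt past the stem-loop, that of 22 others stopped within 100 nt of it, and no stem-loop of this kind was found in the remaining 24, whose models may simply end before it. A poly(A) signal, AATAAA or ATTAAA on the transcript strand, lay in the last 50 nt of the longest transcript of 16 of the 68 genes, against 50.2% of other protein-coding transcripts. Of the 22 genes that ran on, 11 had such a signal, and of the 22 that stopped near the stem-loop, 2 had one. These 2 include Hist1h2bp, in which the signal and the stem-loop lay in different transcripts. The ends of 6 transcripts with a signal are given below, up to 30 bases, with the signal in capitals. Where the signal lies more than 30 bases from the end, the bases shown start just before it.

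Hist1h1c: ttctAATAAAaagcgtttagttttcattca
Hist1h4i: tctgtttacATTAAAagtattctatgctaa
Hist1h2be: tgtgttccttATTAAAgcattcctgattga
Hist2h2be: ttattattAATAAAgttaccgattagtttc
Hist3h2a: ccAATAAAataagagtacgtgtataacata
Hist1h4h: ttATTAAAagagcgaacatgtgttttacgt

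The first 5 of these end between 330 and 1861 nt past their stem-loop, apart from Hist2h2be, in which none was found. Hist1h4h differs, with its signal in a transcript that ends 46 nt past the stem-loop.

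Counts of the 68 genes summed to 58340 over the 16 libraries, and a few members held most of them. Hist1h1c, a replication-dependent H1 gene, had 30.7% of the counts, and with Hist1h2bc, an H2B gene, the share was 45.3%. The 22 genes annotated past the stem-loop held 57.7% of member counts, the 22 that stop near it 12.4% and the 24 without a match 29.9%. Long transcripts gather more counts, so genes were compared per kb of their longest transcript. On that scale Hist1h1c (34.5 CPM per kb, mean of 16 libraries) and Hist1h2bc (21.9) stood first, followed by Hist1h4i (9.87) and Hist1h4h (7.74), both H4 genes. The first, the third and the fourth of these have a signal at the annotated end, and Hist1h2bc has neither signal nor stem-loop in its only transcript of 1156 nt, although its gene spans chromosome 13 from 23684199 to 23692908.

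Per kb, the groups by 3′ end did not stand apart. The median was 1.36 CPM per kb for genes that run past the stem-loop (range 0.0271 to 34.5), 1.65 for those that stop near it (0.242 to 7.74) and 1.43 for those without a match (0.00463 to 21.9). Genes with and without a signal in the last 50 nt had medians of 1.36 and 1.51. Before division by length, medians were 1.25 CPM for genes that run past the stem-loop, 0.750 for those that stop near it and 0.587 without a match. They were 0.952 and 0.806 CPM with and without a signal. Median annotated lengths of the groups by stem-loop were 1255, 496.5 and 408 nt. As length both sets these groups and divides the level, per kb values cannot show whether level goes with the 3′ end. The limit of 100 nt was chosen after values were seen, and the annotation is of transcripts known in mouse, not of those in these libraries.

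**Figure D1:**
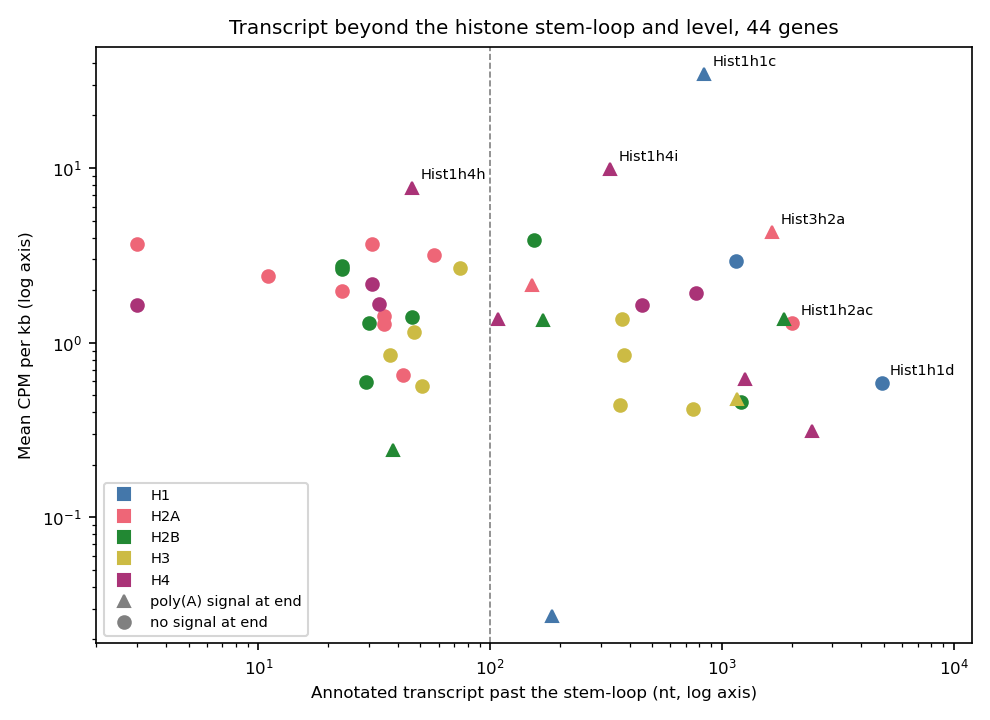
Length of annotated transcript past the stem-loop (x axis, nt, log scale) against the mean CPM per kb over 16 libraries (y axis, log scale) for the 44 genes with a stem-loop, coloured by class. Triangles have AATAAA or ATTAAA in the last 50 nt of the longest transcript, and the dashed line is at 100 nt. Hist1h1c stands above the others at 34.5 CPM per kb, with the genes on either side of the line overlapping below it.

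Depth and library make-up set what could be seen. Totals were 12395041 to 39197660 counts in marrow, 12072482 to 33605464 in SMC3+/- sarcomas and 9797201 in sarcoma 841, and a count of 0 allowed up to 0.0697 to 0.279 CPM in a library. The mean log2 CPM of 24 long-transcript genes was 1.89 to 2.21 in marrows 737, 779 and 782 and 4.85 in tumour 1 of mouse 948, against 5.26 to 7.35 in the other 12 libraries. Sarcoma 1268_1270 stood apart by an adipocyte marker mean of 12.05 and a pan-leukocyte mean of 5.29, where the other 15 libraries had at most 5.46 and at least 7.82. Smc3 itself had 137 CPM in sarcoma 841, between the lowest (63.6 CPM) and the highest (217 CPM) SMC3+/- sarcoma mouse, so its level did not separate the genotypes.

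Together the 68 genes made up a small part of every library. The summed level was 116 to 315 CPM in the 9 marrows (191 ± 72.8, mean ± SD) and 98.5 to 270.1 CPM in the 6 SMC3+/- sarcoma libraries (177 ± 69.9 over 4 mice), and it was 160.3 CPM in sarcoma 841. Marrow 949 was highest and tumour 2 of mouse 2721 lowest, and the groups overlapped over most of their range. On library totals without TMM scaling the lowest library had 109 CPM (95% Wilson interval 104 to 113) and the highest 306 CPM (299 to 314).

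**Figure D2:**
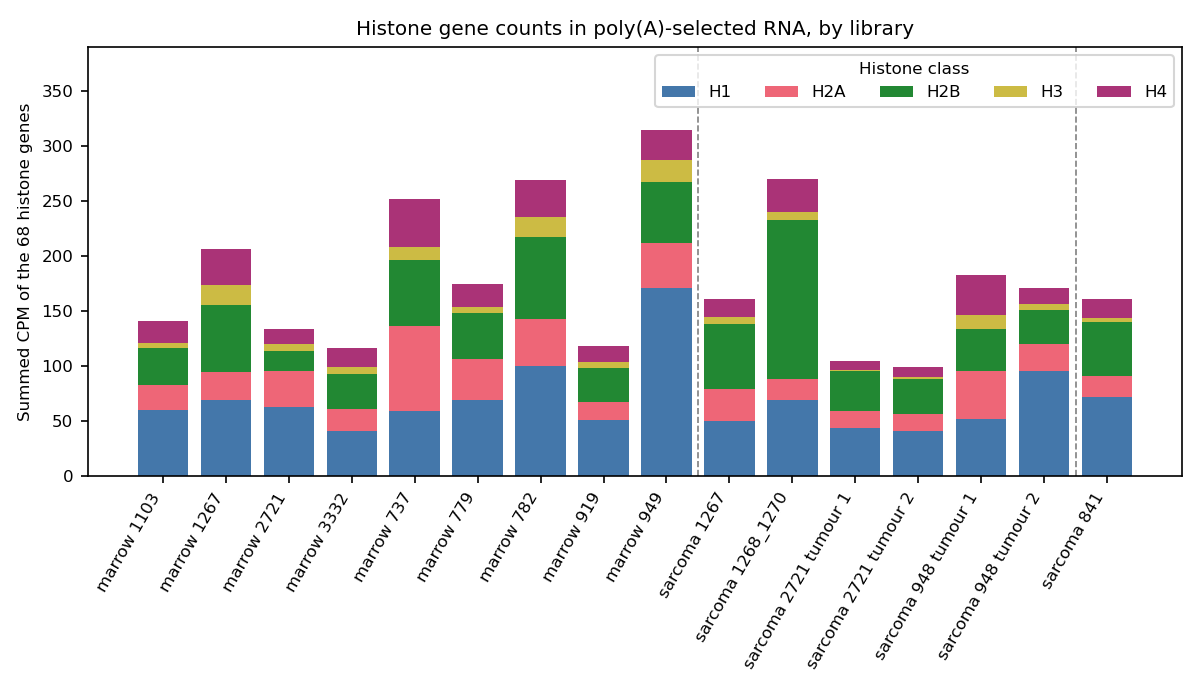
Summed CPM of the 68 histone genes in each of the 16 libraries, stacked by histone class, with dashed lines between marrow, SMC3+/- sarcoma and sarcoma 841. Bars run from 98.5 to 315 CPM, the H1 part is largest in marrow 949 (171 CPM) and the H2B part in sarcoma 1268_1270 (145 CPM).

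The classes took unequal parts of the counts: H1 38.6%, H2B 28.6%, H2A 16.2%, H4 12.1% and H3 4.59%. The linker class was carried by Hist1h1c, the member with the most counts in 14 of the 16 libraries, while Hist1h2bc led in sarcomas 1267 and 1268_1270. H3 was low throughout, at 1.04 to 19.5 CPM summed over its 12 genes.

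Many members were at or near 0. Between 5 and 27 of the 68 had no count in a library, and 17 had at least 1 count in all 16. Of all genes in the count table, 23.3% to 50.6% had no count in a library, so zeros were not particular to the members. Members with 10 or more counts numbered 29 to 55 in marrow, 19 to 49 in SMC3+/- sarcoma libraries and 21 in sarcoma 841. Hist1h1t and Hist1h2ba, known as testis forms of H1 and H2B, had 8 and 11 counts in all, with Hist1h2ba at 0 in all 9 marrows. The same count in every library was found for 4 pairs: Hist2h3c1 with Hist2h3c2, Hist2h2aa1 with Hist2h2aa2, Hist1h2ao with Hist1h2ap, and Hist1h2bq with Hist1h2br. The members of a pair are paralogues of the same class, so 64 count patterns stand for 68 genes and each such pair is 1 measurement. The sources used here do not say how reads that fit several histone genes were counted, and values of single members share that uncertainty.

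**Figure D3:**
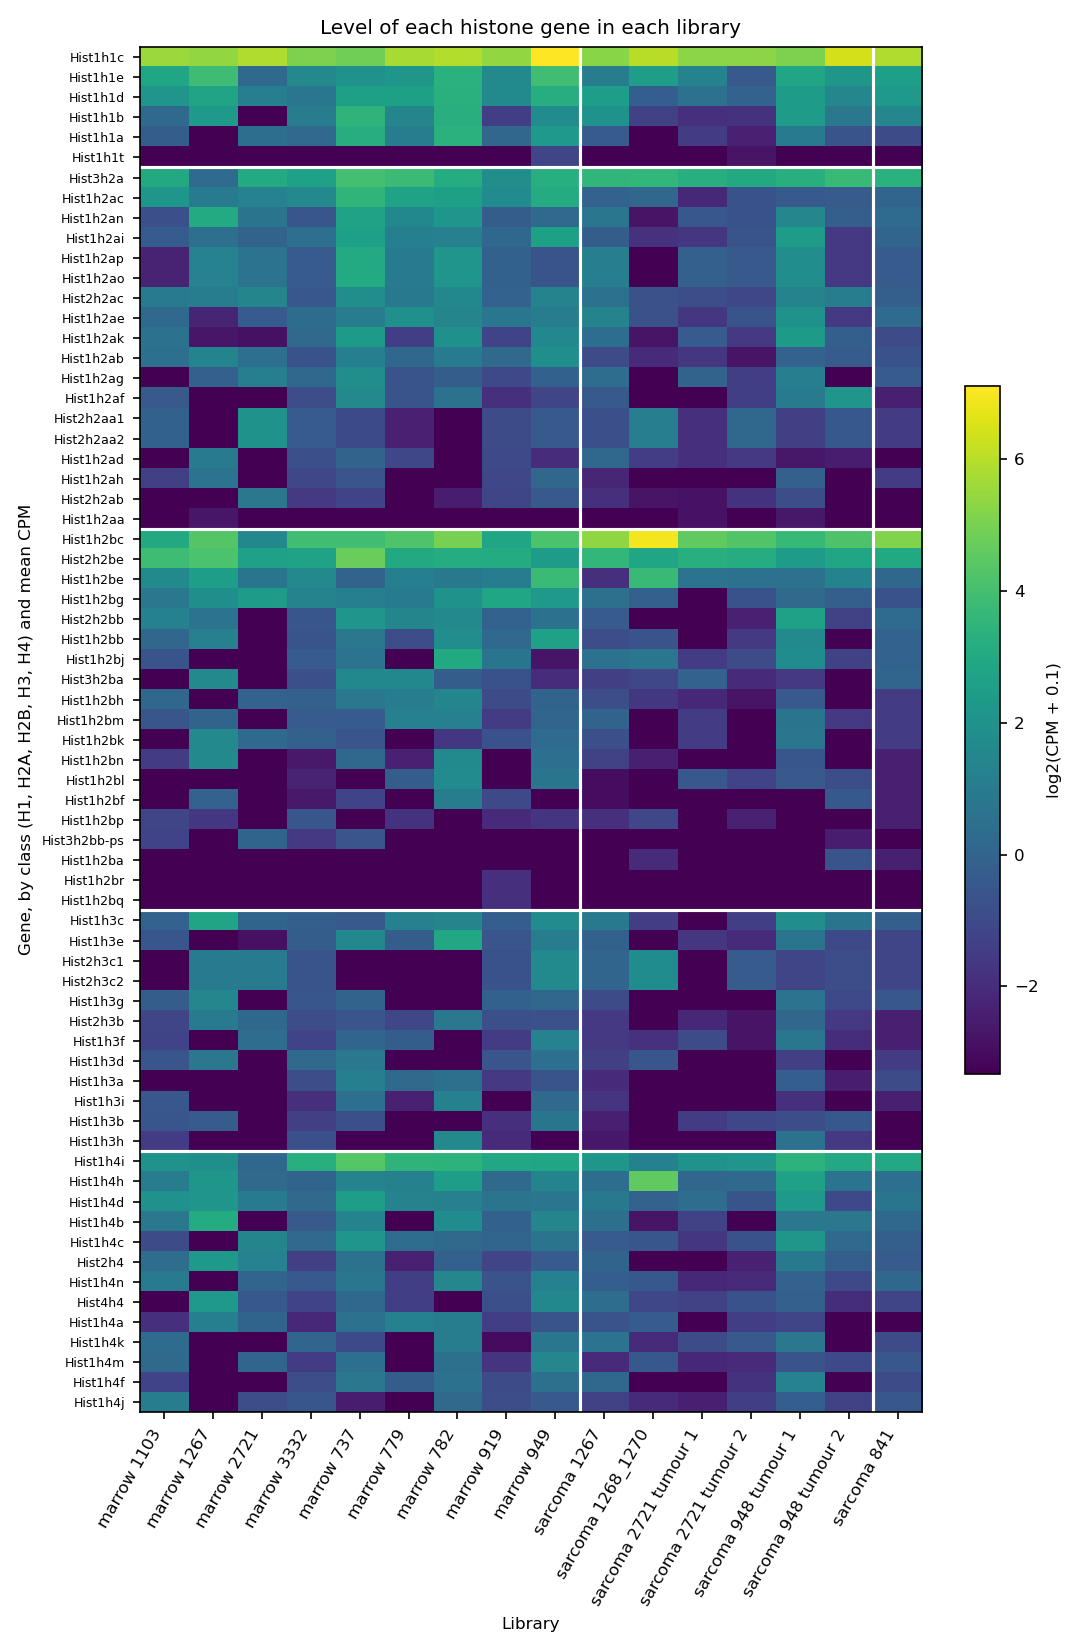
Level of each of the 68 genes (rows, by class and mean CPM) in each of the 16 libraries (columns; marrow, SMC3+/- sarcoma, sarcoma 841) as log2(CPM + 0.1). Hist1h1c, Hist1h2bc, Hist2h2be, Hist3h2a and Hist1h4i stay bright across libraries, and most H3 and lower H2B rows fall to the darkest colour in several.

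The 2 tumours of mouse 948 differed in histone levels, and those of mouse 2721 were close in the levels given below. In mouse 948, the genes that stop near the stem-loop summed to 38.3 CPM in tumour 1 and 10.7 CPM in tumour 2, and H3 to 12.8 and 4.63 CPM. Hist1h1c went the other way, with 32.7 and 85.98 CPM. The mean log2 CPM of 26 S phase genes, read for the part of the cell cycle in which these histones are made, was 6.37 and 4.61 in the same tumours. Their means also differed for the long-transcript genes, at 4.85 and 7.02, and for skeletal muscle markers, at 7.03 and 0.03, and the part of either in the histone values was not tested. In mouse 2721 the tumours had 6.04 and 7.21 CPM for genes that stop near the stem-loop, 39.5 and 39.1 CPM of Hist1h1c and S phase means of 5.56 and 5.62. Their long-transcript means were 6.46 and 6.64, but their skeletal muscle means differed as well, at -0.47 and 5.99. No test of these tumour pairs was possible with 1 library each.

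The study set sarcoma against infiltrated marrow, and 57 of the 68 genes had counts enough to be tested in the SMC3+/- mice. The 11 others were Hist1h1t, Hist1h2aa, Hist1h2ah, Hist1h2ba, Hist1h2bf, Hist1h2bp, Hist1h2bq, Hist1h2br, Hist1h3h, Hist2h2ab and Hist3h2bb-ps. Of the 57, 1 passed the test with lower counts in sarcoma (edgeR quasi-likelihood, Benjamini-Hochberg adjusted p under 0.05 over 14730 genes) and 0 with higher counts, where 0.0543% and 4.49% of all genes tested did. At an unadjusted p under 0.05 there were 4 of the 57, against 13.8% of all genes. Fitted changes were negative for 47 and positive for 10 members, with a median of -1.03 on the log2 scale against 0.07 over all genes. Of all 14730 genes tested, 6693 had negative changes. Tested pairs of members with equal counts entered these member counts as 2 genes each. Under scaling to pan-leukocyte genes, fitted changes shifted by amounts that differed from gene to gene. The median change was then 2.01 over all genes and 0.16 over the members. Relative to all genes the members' median was thus -1.10 before that scaling and -1.85 after it. With that scaling 7 of the 57 members were called higher and 0 lower, where 56.1% and 0.0611% of all genes were.

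Hist1h2ac, an H2A gene whose transcript is annotated 2010 nt past its stem-loop, was the member called. Its annotated gene overlaps the rRNA gene Gm24991 on the same strand and the miRNA gene Gm44350 on the other. The part of these 2 genes in its counts was not tested. The level of Hist1h2ac in the 9 marrows was 1.82 CPM at the lowest, 4.38 at the median and 11.3 at the highest. In the sarcomas it was 0.865 CPM in mouse 1267, 0.998 in 1268_1270, 0.646 and 0.706 in the tumours of 948, and 0.129 and 0.511 in those of 2721. The lowest marrow, that of mouse 1267, lay above the highest sarcoma, and sarcoma 841 with 0.966 CPM sat among the sarcomas. Counts were 3 to 30 in these sarcoma libraries and 33 to 169 in marrow. From 5.19 ± 3.14 CPM (SD, n = 9) to 0.715 ± 0.294 CPM (SD, n = 4), Hist1h2ac fell by 2.93 ± 0.76 on the log2 scale (edgeR adjusted p = 0.0392). Within the mice that gave both tissues it was 1.82 and 0.865 CPM in mouse 1267 and 2.36 and 0.320 CPM in mouse 2721, marrow first.

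The call on Hist1h2ac was narrow. It held without marrow 1267 or marrow 2721 but was lost without any of the other 11 samples (edgeR adjusted p = 0.0297 to 0.114, log2 change -3.18 to -2.69), without the libraries low in long transcripts (adjusted p = 0.160) and with the mouse as a block (log2 change -2.13). Under scaling to pan-leukocyte genes its change was -0.52 (adjusted p = 0.669), which relative to the median of all genes was -2.53, against -3.00 in the reported fit.

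Other cells of the tissue moved with the comparison. All 6 fibroblast and all 6 adipocyte markers were called higher in sarcoma, with 4 of 6 endothelial and 4 of 6 muscle markers. The fibroblast mean was -3.01 to 0.66 log2 CPM in marrow and 4.26 to 8.90 in sarcoma, and the adipocyte mean -2.13 to -0.43 and 0.44 to 12.05. None of 20 pan-leukocyte genes was called (edgeR; median -0.83), and their mean was 7.82 to 9.37 in marrow and 5.29 to 8.75 in sarcoma. Neither were any of 9 progenitor, 9 late neutrophil, 8 erythroid or 7 B cell genes. The part of these cells in the histone values was not tested, and in bulk tissue fewer cells of a type and less RNA per cell cannot be told apart.

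A second member, the H2B gene Hist1h2bg, had no overlap of the groups, and is named after its values were seen because it lay outside the naming rule. It had 1.72 to 7.11 CPM in marrow, with a median of 3.54. Sarcoma libraries had 1.33 CPM in mouse 1267, 0.816 in 1268_1270, 1.12 and 0.784 in 948, and 0 and 0.511 in 2721. Every sarcoma mouse was thus below every marrow, yet the change of -2.21 ± 0.74 did not pass (edgeR adjusted p = 0.132). The groups did not overlap, with sarcoma lower, for these 2 of the 57 members and for 0.163% of all genes tested, and with sarcoma higher for 0 members and 4.56% of all genes. Under DESeq2, 3 members passed, all lower: Hist1h2ac, Hist1h2bg and the H2A gene Hist1h2ab (-2.33 ± 0.68, adjusted p = 0.0202), of which the last is named here after its values were seen. DESeq2 called 0.563% of all genes lower and 3.03% higher.

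Hist1h2bc had the most positive fitted change of all members. It had 2.81 to 31.5 CPM in marrow, with a median of 15.0. The sarcomas had 40.98 CPM in mouse 1267, 120 in 1268_1270, 12.6 and 18.1 in 948 and 23.6 and 19.5 in 2721, with 34.7 CPM in sarcoma 841. The groups overlapped, with the lowest sarcoma mouse at 15.4 CPM, near the marrow median. The change of 1.69 ± 0.58 did not pass (edgeR adjusted p = 0.144), and 1 tumour bore much of it, since without sarcoma 1268_1270 it was 0.67. In both mice with both tissues the sarcoma was higher, with 20.0 and 40.98 CPM in mouse 1267 and 2.81 and 21.5 CPM in mouse 2721.

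**Figure D4:**
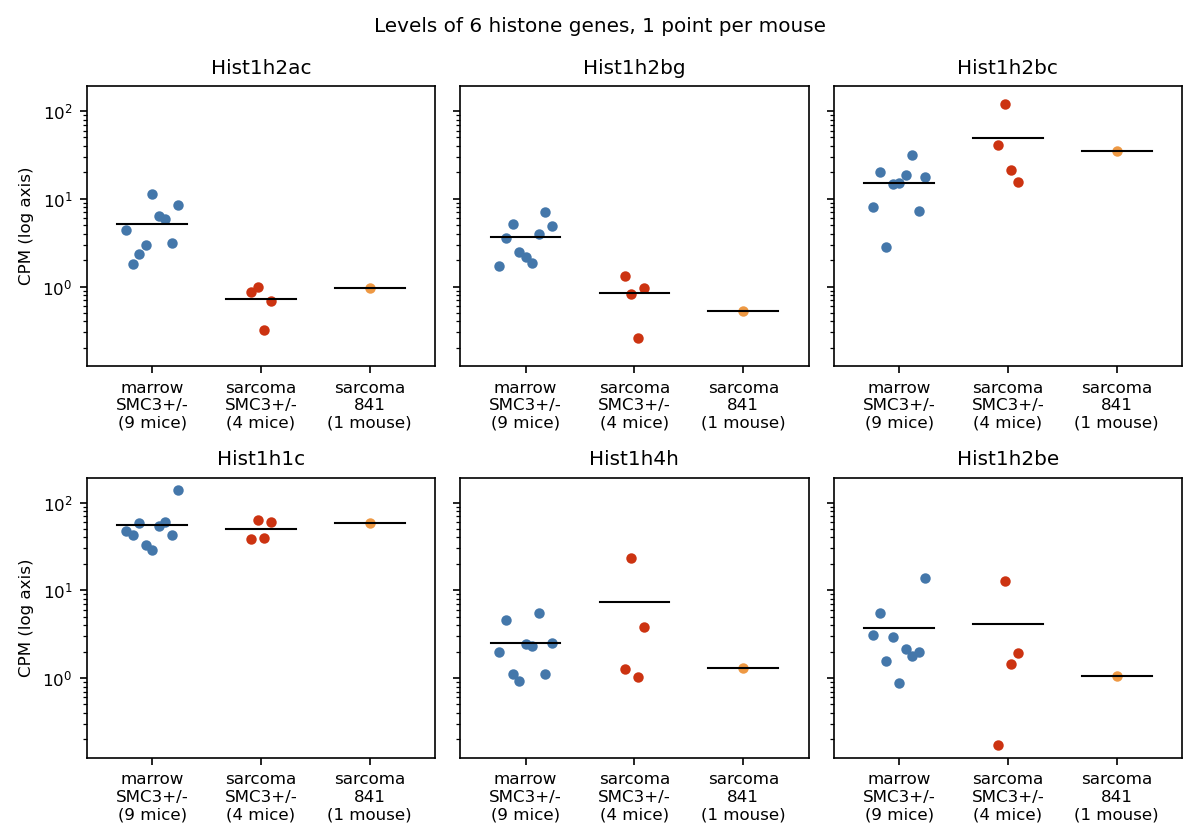
CPM (log axis) of 6 histone genes, 1 point per mouse, in marrow (9 mice), SMC3+/- sarcoma (4 mice) and sarcoma 841; horizontal lines are group means. The groups are apart for Hist1h2ac and Hist1h2bg and overlap for the other 4 genes, and sarcoma 1268_1270 is the top point for Hist1h2bc (120 CPM), Hist1h4h (23.4 CPM) and Hist1h2be (12.9 CPM) in its group.

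Hist1h2ac and Hist1h2bc are neighbours that point away from each other, with starts 251 nt apart in GENCODE M21, and their fitted changes have opposite signs. A segment that covers most of the space between them is printed, since it lies upstream of both. By the GENCODE starts it leaves out a few bases next to Hist1h2ac and runs a few bases into Hist1h2bc. It is the 250 bases before the RefSeq start of Hist1h2ac (GRCm38.p6, chr13:23683960-23684209, minus strand), 5′ to 3′ on the strand of Hist1h2ac, with matches to TATAAA, to CCAAT in either direction and to the octamer ATGCAAAT in capitals. All motifs were searched on both strands and none overlapped another.

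Hist1h2ac promoter: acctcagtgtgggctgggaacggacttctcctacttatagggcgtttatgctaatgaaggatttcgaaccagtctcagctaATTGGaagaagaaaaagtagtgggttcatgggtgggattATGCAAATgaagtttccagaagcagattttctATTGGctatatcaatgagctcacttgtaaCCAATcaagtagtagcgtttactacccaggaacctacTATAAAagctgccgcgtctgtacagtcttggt

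Counted from the 5′ end of this segment, TATAAA lay at bases 219 to 224, the octamer at 121 to 128 and CCAAT in either direction at 82 to 86, 153 to 157 and 182 to 186. Of the member promoters in the RefSeq table, 63 could be searched over the same 250 bases. CCAAT was in 52 of them, among these all 17 of H2B and all 18 of H2A, and in 33.8% of all 32851 promoters. TATAAA was in 29 of 63 and 12.4% of all, and ATGCAAAT in 14 of 63, 7 each of H2A and H2B, and 1.60% of all. These are matches of letters, not measured binding. There were 13 such divergent pairs of members, with starts 173 to 306 nt apart. Both genes were tested in 6 pairs, and 5 of these had fitted changes of the same sign, so the pair of Hist1h2ac and Hist1h2bc was the exception. As 47 of the 57 tested members had negative changes, equal signs would be common in any pairs of members. Only the change of Hist1h2ac passed among these pairs (edgeR).

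The linker histone genes had negative fitted changes in all 5 tested, none of which passed (edgeR). Hist1h1c had 29.0 to 138 CPM in marrow, median 47.0, and 37.9 in sarcoma 1267, 62.7 in 1268_1270, 32.7 and 85.98 in 948 and 39.5 and 39.1 in 2721. Marrow 949 was far above the rest and the groups overlapped, with a change of -0.27 ± 0.40 (adjusted p = 0.918). Under pan-leukocyte scaling it was 2.15, close to the 2.01 by which the median gene stood there. Hist1h1e and Hist1h1d, further somatic H1 genes, had changes of -0.97 ± 0.75 and -1.03 ± 0.71 that did not pass. Hist1h1a was the most negative of the class, with 0 to 10.2 CPM in marrow, 0 to 1.21 CPM in the sarcoma mice and a change of -2.73 ± 1.47 (adjusted p = 0.485).

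Among the H2A genes 15 were tested, with 4 positive and 11 negative changes. Hist3h2a, which lies on chromosome 11 within the same-strand gene Trim17, had 8.66 to 11.7 CPM over 4 sarcoma mice (10.8 ± 1.43) against 1.16 to 15.9 CPM in marrow (8.32 ± 4.56). Its change of 0.29 ± 0.54 was the most positive of the class and did not pass. Hist2h2ac had 0.622 to 3.47 CPM in marrow and 0.423 to 2.25 CPM in sarcoma, a change of -0.96 ± 0.77.

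Of 13 H2B genes tested, Hist1h2bc and Hist1h2be had positive changes. Hist1h2be, whose annotated gene overlaps Hist1h1e on the same strand, had 0.887 to 13.9 CPM in marrow and 0.173 CPM in sarcoma 1267, against 12.9 CPM in 1268_1270, and its change was 0.10 ± 0.98. Hist2h2be held 5.14 to 26.8 CPM in marrow and 6.22 to 11.9 CPM in the sarcoma mice, and its change did not pass (-0.48 ± 0.50, edgeR adjusted p = 0.847). Hist1h2bn was the most negative, at 0 to 3.02 CPM in marrow and 0 to 0.317 CPM in sarcoma (-2.48 ± 1.74).

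H3 was the class with the fewest counts per gene and the widest spread. Hist1h3c had 0.645 to 6.69 CPM in marrow and 0.139 to 2.49 CPM in sarcoma, and Hist1h3e 0 to 7.36 and 0 to 0.960 CPM. Hist2h3c1, with the same counts as Hist2h3c2, had the most positive change of 0.47 ± 1.49, and its highest value of 3.31 CPM was again in sarcoma 1268_1270. Hist1h3i had the most negative fitted change of all members, -3.06 ± 1.87, from 0 to 2.28 CPM in marrow and 0 to 0.202 CPM in sarcoma, which is close to the level that a count of 0 allows. None of the 11 tested passed (edgeR).

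The 13 H4 genes were all tested and none passed (edgeR), with 2 positive and 11 negative changes. Hist1h4i, with the highest level per kb of the class, had 1.05 to 20.2 CPM in marrow and 2.31 to 9.24 CPM in sarcoma (-0.77 ± 0.67). Hist1h4h was the most positive at 1.57 ± 0.82 (adjusted p = 0.453), but this rested on 1 tumour: it had 23.4 CPM in sarcoma 1268_1270 against 0.992 to 6.23 CPM in the other 5 sarcoma libraries and 0.917 to 5.52 CPM in marrow, and without that tumour the change was -0.33. Hist1h4d (-0.86 ± 0.72) and Hist1h4b (-1.64 ± 1.47, the most negative, and overlapping an antisense gene) overlapped between tissues.

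**Figure D5:**
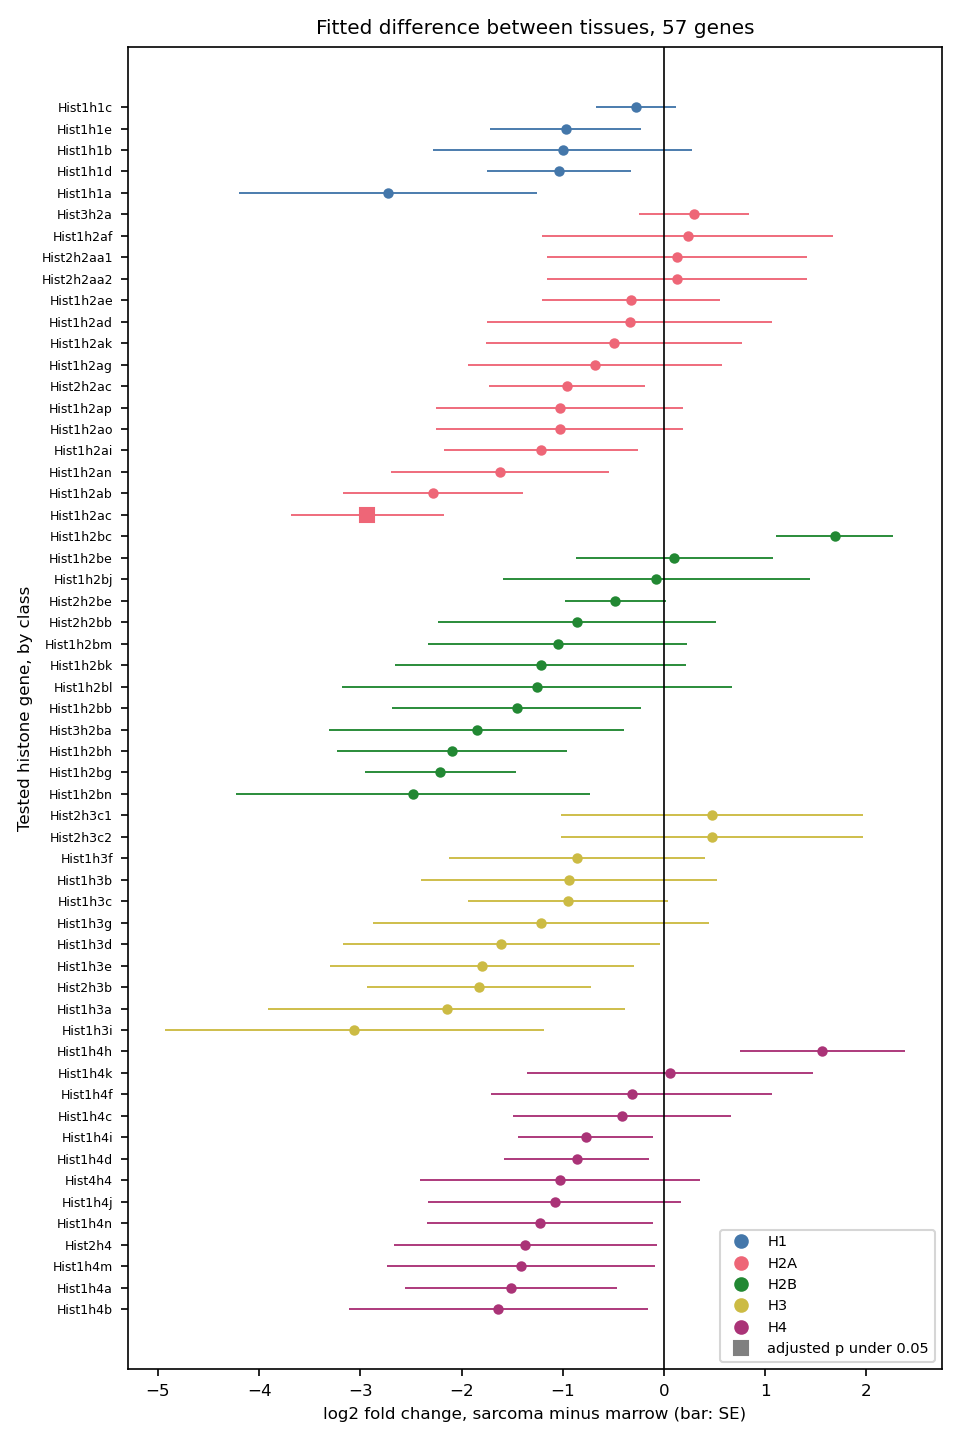
Fitted log2 fold change, sarcoma minus marrow, of the 57 tested histone genes (points, with bars for the SE) by class; the square marks the member with an adjusted p under 0.05. Of the points, 47 lie below 0, and Hist1h2ac is the square, at -2.93.

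The members' median spread between samples of a group was above that of all genes, which were not matched to them in level. The median biological coefficient of variation in the tissue fit was 1.22 over the 57 members and 0.716 over all 14730 genes, and by class it ran from 0.821 in H1 to 1.54 in H3. Members with the most counts had lower values: Hist1h1c 0.499, Hist1h2bc 0.720, Hist2h2be 0.614 and Hist3h2a 0.668. With 4 sarcoma mice this spread limits the size of change that could pass.

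Sarcoma 1268_1270 showed how few members could make up the sum. It had the highest summed level of the sarcomas, 270.1 CPM, while 25 of its 68 members were at 0, where 27.4% of all genes were. Its S phase mean of 3.18 was the lowest of all 16 libraries, the others lying between 4.61 and 6.74. Hist1h2bc alone was 44.6% of its member counts, and with Hist1h1c the share was 67.8%. Hist1h4h and Hist1h2be were also at their sarcoma maximum there. Hist1h1a, Hist1h3e and Hist1h3i had no count in it. The part of its adipocyte RNA in these values was not tested.

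The 3 marrows lowest in long transcripts had summed levels of 174, 252 and 269 CPM, and the other 6 had 116 to 315 CPM with a median of 137. For genes that stop near the stem-loop the 3 marrows had 17.5 to 44.4 CPM (median 43.4) and the others 13.4 to 33.7 CPM (median 18.5), and for genes without a stem-loop match 41.0 to 93.7 CPM (median 93.1) and 16.8 to 68.1 CPM (median 34.7). Marrows 737 and 782 lay above every other marrow in both groups of genes, and marrow 779 lay among the others. Marrow 1267 was the highest of the other 6 in both groups and the lowest of them in long transcripts (mean 5.26). The S phase means were 6.74 in marrow 737, 6.67 in 782 and 6.14 in 779, against 5.75 to 6.58 in the other 6. The part of RNA quality or of S phase in these values was not tested.

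Genes that act on these messages or go with them were read from lists. Of 18 measured genes of histone 3′ processing none was called (edgeR, median change -0.25); Slbp, which binds the stem-loop and is named for that role after its values were seen, had a change of -0.76 ± 0.37 (adjusted p = 0.386), and Srrt, the list's highest gene, one of -0.27 ± 0.47. The other 4 symbols of that list were not analysed here. None of 10 replacement histone genes, which can be made outside S phase and can give polyadenylated messages, was called (median -0.60). Among them, H3f3b, a gene for H3.3, was at -0.59 ± 0.48 and H2afy, which encodes macroH2A, at -1.07 ± 0.42. None of 14 histone chaperone genes was called (median -0.47), such as Rbbp4 (-0.76 ± 0.46) and Nap1l1 (-0.13 ± 0.41). All 26 S phase genes had negative changes with a median of -0.67 and none passed, with Pcna, the replication clamp, at -0.61 ± 0.49 and the helicase subunit Mcm6 at -0.81 ± 0.48.

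The sarcoma with wild type SMC3 was set against the 4 SMC3+/- sarcoma mice, with its spread taken to equal theirs. Of 59 members tested 0 were called, as were 0% of 17762 genes (edgeR; the smallest adjusted p of a member was 0.999938), and 0 members had an unadjusted p under 0.05, where 236 genes did. DESeq2 called 0 members, with 0.0394% of all genes called higher and 0.31% lower. Hist1h1c had 58.1 CPM in it and Hist1h2bc 34.7, both within the range of the SMC3+/- tumours. It lay below all 4 SMC3+/- mice for 6 members, where 19.3% of all genes did, and above all 4 for 5 members, where 9.26% did. The 5 above included the H1 gene Hist1h1e, at 5.88 CPM against 1.56 to 5.77 CPM. The median change was -0.47 for members and -0.33 for all genes, and 1 tumour gives no measure of the spread in its genotype.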

How the data were processed

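Poly(A)-selected RNA was sequenced from 16 libraries, with a library kit that does not mark strand, per the labels' protocols. The authors deposited raw counts per gene symbol, whole numbers with unequal library totals. Tools named per the submitters' processing notes are STAR, DESeq and DESeq2, with mm9 as the build. No source used here gives the counting tool, its strand setting or how reads that fit several genes were treated, so overlapping genes on opposite strands cannot be told apart. The table had 0 columns of other samples and 0 rows without a gene name. No pair of libraries held identical values, and the closest, both tumours of mouse 2721, differed by a mean chi-square of 17.8 per gene.

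Libraries of a mouse and tissue were summed, giving 13 samples for the tissue comparison, filtered with filterByExpr, scaled by TMM and compared with glmQLFit (robust) and glmQLFTest in edgeR 4.0.16 under R 4.3.3, two-sided. The SE was back-calculated from the fold change and the F statistic, and is approximate. CPM uses TMM-scaled totals, a mouse's CPM is the mean of its libraries, and log2 CPM has a prior count of 2. There were no molecular identifiers, so intervals and floors (3 counts) cover counting error only. The labels name mice, so samples of a group are separate animals apart from repeat tumours. The mice 1267 and 2721 pair the tissues per the labels, and the correlation of their within-tissue deviations over 14730 genes was 0.30 and 0.21.

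Transcripts came from GENCODE M21 on GRCm38 and promoters from RefSeq on GRCm38.p6, a later build than the files, matched by symbol. Of the members, 68 had a RefSeq record and 63 a promoter there. Members named with values are those called, the 3 with the highest mean log2 CPM of each class, and the most positive and most negative fitted change of each class. Of other lists, up to 4 called genes or the 2 highest were eligible. The members and lists were chosen with earlier results of these data known. Alternatives used DESeq2 1.42.0, limma 3.58.1 (voom), other scalings, filters, samples and blocks, and each mouse left out. On simulated data the tissue test recovered 10 of 100 changes of 4-fold and 63 of 100 of 16-fold, with 4 false calls.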

Additional observations from a re-analysis of the deposited data

Results flagged for a closer look

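Of 40 groups of mice examined for a value far from the rest, 7 had one. Chance gives about 1 in 20 where values are normally distributed, and that rate was not measured for these levels. Sarcoma 1268_1270 was far above the other sarcoma mice for the H4 gene Hist1h4h, with 23.4 CPM where the next had 3.86, and for the H2B gene Hist1h2be, with 12.9 CPM where the next had 1.92. Marrow 949 was far above the other marrows for Hist1h1c, with 138 CPM against 60.6 for the next, and for Hist1h2be, with 13.9 CPM against 5.58. Marrow 1267 stood out for Hist1h3c, with 6.69 CPM against 3.14, and for Hist1h4b, with 8.51 CPM against 3.24. Marrow 782 had 7.36 CPM of Hist1h3e, where the next marrow had 2.82. All 7 were high values.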

How the results depend on the processing

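The count of members called higher was 0 in all settings except scaling to pan-leukocyte genes, which gave 7: Hist1h1c, Hist1h2bc, Hist1h2be, Hist1h4h, Hist2h3c1, Hist2h3c2 and Hist3h2a. That scaling called 56.1% of all genes higher. Members called lower, 1 as reported, were 3 with DESeq2. They were 0 with pan-leukocyte scaling, with only 1 tumour per mouse (the first), without mice 1267 and 2721, without the 4 libraries with few long transcripts, and with sarcoma 1268_1270 left out as well, a setting chosen after seeing the data. They ranged from 0 to 1 when each mouse and tissue was left out. With the mouse as a replicate block they were 0 over all mice and 0 over mice 1267 and 2721, and all-mice blocking moved the members' median to -0.29. Pan-leukocyte scaling moved the median of all genes to 2.01, though not every gene by the same amount. It gave a members' median of 0.16 and a change of Hist1h1c of 2.15. Relative to the median of all genes the members' median was -1.85 under it, against -1.10 as reported. In all, Hist1h2ac was called in 12 of 30 alternatives. The call count in sarcoma 841 was 0 in every alternative run. Its summed level was 186 CPM on library totals and 102 CPM without Hist1h1c, against 160.3 as reported. The cause of these shifts was not tested. Spread between mice and counts near 0, most of all in H3, limit what could be called. With 4 sarcoma mice, and 1 of the other genotype, small changes could not be told from the spread.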
